A study of Mus musculus with 10 samples.

Results

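The 8 mRNAs described here encode products associated with stem and progenitor cells of the pituitary: the transcription factors Sox2 and Sox9, the secreted glycoprotein Fstl1, the receptors Ednrb and Gfra2, the retinaldehyde dehydrogenase Aldh1a2, and the intermediate filament proteins Nes (nestin) and Vim (vimentin). They were taken by name, through their Ensembl gene IDs, from the 55416 genes of the count table, and each name matched 1 ID. The study sequenced RNA that came down with pooled antibodies against Musashi1 and Musashi2 (Musashi IP, 5 libraries) or with control rabbit IgG (5 libraries) from the same mouse pituitary lysates. Each lysate held 6 pituitaries of sighted control FVB mice (FVB.129P2‐Pde6b+Tyrc‐ch/Ant) aged 8 to 10 weeks, so every library is a pool of animals, and the numbers of the lysates run 2, 5 and 6 for females and 3 and 7 for males. No library of input RNA was analysed here, so enrichment always means relative to IgG.

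Pituitary stem cells are Sox2-positive cells that line the remnant of the embryonic cleft and lie scattered through the anterior lobe; many also carry Sox9. They sit beside, and can give rise to, the hormone-secreting cells, and they signal to them. Musashi proteins bind short UAG-containing elements, mostly in 3' untranslated regions, and control whether the mRNA is translated; in neural and other epithelial tissues they are known as proteins of stem and progenitor cells.

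Because Musashi proteins recognise RNA by sequence, the 3' untranslated region of each mRNA was searched on the sense strand for GUAGU with its longer forms GUUAGU as well as GUUUAGU, and for AUAGU with its longer forms AUUAGU as well as AUUUAGU, with overlapping matches allowed. The longest 3' untranslated region in GENCODE M21 was used. In all, 6 of the 8 mRNAs held at least 1 match and 14 matches were found, 7 of them AUAGU. Matches in the mRNAs with the largest recovery over IgG (Fstl1, Ednrb and Sox9) and in Sox2, the defining gene of the group, are shown in RNA letters, 5′ to 3′, with the match in capitals. Fstl1 (ENSMUSG00000022816) lies on chromosome 16, Ednrb (ENSMUSG00000022122) on 14, Sox9 (ENSMUSG00000000567) on 11 and Sox2 (ENSMUSG00000074637) on 3.
Fstl1 site 1: aauuauuuuuucAUUAGUccuacuauuuca
Fstl1 site 2: auuuaauaaaugGUAGUuugugguuuagc
Fstl1 site 3: aauucguccuaaAUAGUuuuuccuggucu
Fstl1 site 4: ccgaaugccuugGUUAGUccuaugaccuaa
Fstl1 site 5: ccuaugaccuaaAUAGUuaaacuucagaa
Ednrb site 1: acgccauagaaaAUAGUcacuguaaccag
Ednrb site 2: cuucaauuuuaaGUUAGUuauuggcucccc
Ednrb site 3: auuggcuccccaGUAGUuucacagcgugg
Ednrb site 4: caaugcauaaaaAUAGUguuaacaaggau
Sox9 site 1: aaguguguuguuAUAGUaacauaaauaau
Sox9 site 2: aaucuuuuuuuuAUUAGUaaaagcaagucu
Sox2 site 1: cuuuuauuuuccGUAGUuguauuuuaaaa

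Fstl1 sites 4 and 5 start at positions 2420 and 2438 of a 3' untranslated region of 2588 nt, close enough for the printed windows to overlap. Ednrb sites 2 and 3 are likewise neighbours, at positions 1767 and 1786 of 2441 nt. The Sox2 match starts at position 918 of 1086 nt, and those of Sox9 at 693 and 1489 of 2250 nt. Nes (ENSMUSG00000004891, chromosome 3) and Aldh1a2 (ENSMUSG00000013584, chromosome 9) each held 1 AUAGU, at position 181 of 421 nt and 354 of 649 nt. Gfra2 (ENSMUSG00000022103, chromosome 14; 1342 nt) and Vim (ENSMUSG00000026728, chromosome 2; 342 nt) held none.

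Such matches are common. At least 1 was present in 74.6% of 13802 tested genes with a 3' untranslated region of at least 100 nt. Among genes whose 3' untranslated region was within 1.25-fold of the member's length, 47.8% held at least as many as the 5 of Fstl1 and 57.5% at least as many as the 4 of Ednrb. The same share was 81.9% for the 2 of Sox9, 76.4% for the 1 of Sox2, 56.3% for the 1 of Aldh1a2 and 39.8% for the 1 of Nes. A match to these letters is not a measured binding site.

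Depth ran from 8.74 to 13.0 M counts in Musashi IP libraries and from 6.67 to 9.35 M in IgG libraries. The labelled sex fitted Xist (29638 to 70049 counts in female libraries, 34 to 56 in male ones) and 4 Y-linked genes summed (at most 1 count in female libraries, at least 3970 in male ones). The 8 members summed to 199 to 250.4 CPM (counts per M counts of the library, with totals scaled by TMM) in Musashi IP libraries and 86.1 to 199 CPM in IgG libraries, against 12960 CPM or more for the 6 hormone mRNAs of the endocrine cells in every library.

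Lysate 2 stood apart. Its summed endothelial markers (10 genes, such as Pecam1 and Cdh5) were at 80.8 CPM in Musashi IP and 412 CPM in IgG, while in the other lysates the sums were 84.6 to 180 CPM in Musashi IP and 92.3 to 170 CPM in IgG. Its summed mural and fibroblast markers (11 genes, such as Pdgfrb and Dcn) were highest, at 897 CPM in Musashi IP and 1348 CPM in IgG. The other lysates had 380 to 727 CPM and 305 to 681.5 CPM. Col1a2 was the most abundant of the 11 genes, averaging 406 CPM in Musashi IP and 473 CPM in IgG over all lysates. No marker of either list was at 0 counts in all libraries. The 6 hormone mRNAs summed were also highest in lysate 2, at 39676 CPM in Musashi IP and 51216 CPM in IgG. The other lysates had 14290 to 23401 CPM and 12960 to 23028 CPM. Of the 8 members, 7 had their lowest ratio of Musashi IP to IgG in lysate 2, so each fold change is also given without it. Leaving out the lysate with the lowest ratio raises a fold change by construction, so the higher values without lysate 2 are no independent support. How many of all genes were lowest in lysate 2 was not counted. What part the other cell types played in those ratios was not tested.

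**Figure D1:**
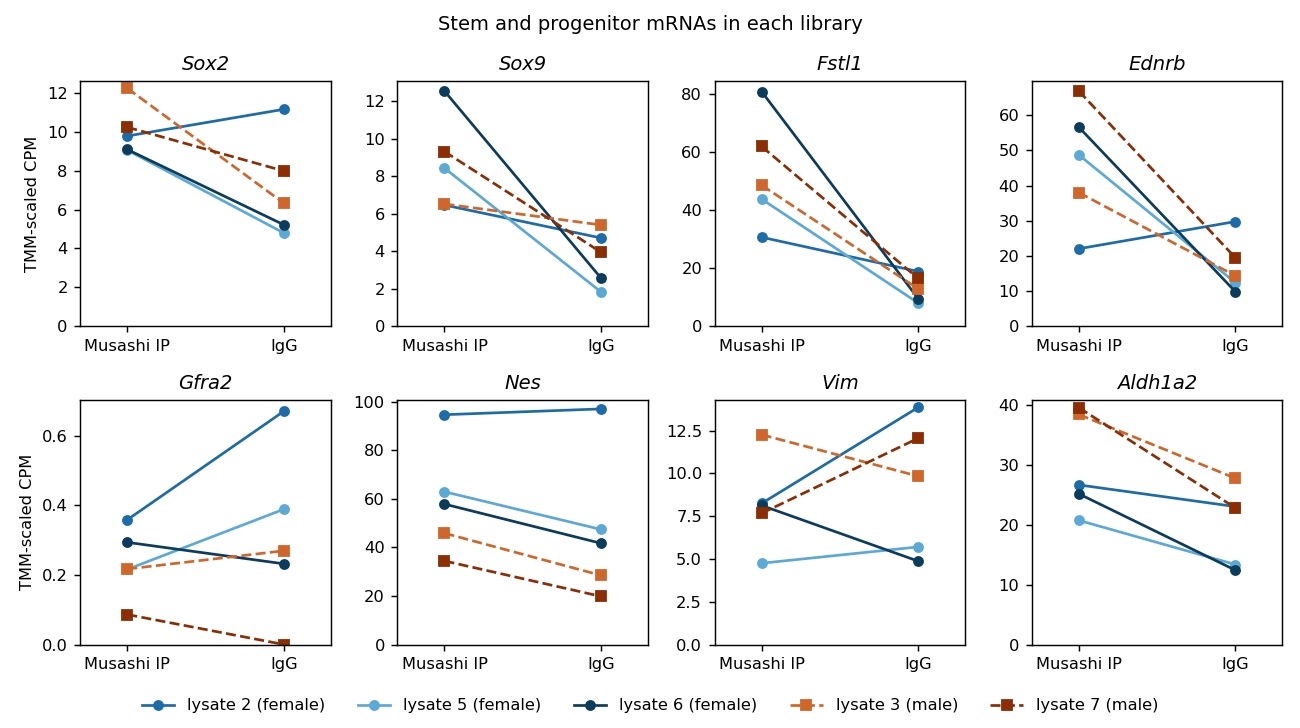
TMM-scaled CPM (vertical axis) of each of the 8 mRNAs in Musashi IP and IgG libraries; a line joins the libraries of 1 lysate, circles are female and squares male lysates. For Fstl1 and Sox9 all 5 Musashi IP values lie above all 5 IgG values, and lysate 2 shows the flattest or falling line for most genes.

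Fstl1, a secreted glycoprotein of the follistatin and SPARC family made by mesenchymal and stem-like cells, had the largest recovery. In lysates 2, 3, 5, 6 and 7 it stood at 30.6, 48.5, 43.7, 80.8 and 61.9 CPM in Musashi IP, against 18.8, 12.8, 7.91, 9.40 and 16.4 CPM in IgG. The groups did not overlap, and lysate 6 was the highest in Musashi IP. Means were 53.1 ± 19.1 CPM in Musashi IP and 13.1 ± 4.58 CPM in IgG (SD, n = 5 each). The fold change was 4.02 (log2 2.01 ± 0.29, mean ± SE; 95% interval of the fold 2.54 to 6.37; adjusted p = 0.00387, edgeR quasi-likelihood test with the lysate as a block), and it was log2 2.39 without lysate 2. Fstl1 ranked 141 of 20550 genes by fold change. Its call held under all 14 alternatives, with adjusted p between 3.32e-11 and 0.0288 and log2 values between 1.72 and 2.39.

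Ednrb is the type B endothelin receptor, a G protein-coupled receptor for all endothelins. It had 22.0, 38.0, 48.7, 56.6 and 66.9 CPM in Musashi IP, against 29.7, 14.3, 12.3, 9.74 and 19.4 CPM in IgG (lysates 2, 3, 5, 6 and 7). The groups overlapped only through lysate 2, whose Musashi IP library was the lowest of its group and whose IgG library was the highest. Ednrb rose 2.76-fold (log2 1.47 ± 0.37, adjusted p = 0.0205, edgeR), or log2 1.97 without lysate 2. Without lysate 5 or 7 it no longer passed (adjusted p = 0.0842 and 0.0536; range over all alternatives 2.24e-06 to 0.0842).

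Gfra2, the receptor subunit through which neurturin signals with Ret, was near the limit of detection. It had 3, 2, 2, 3 and 1 counts in Musashi IP and 6, 2, 3, 2 and 0 counts in IgG, 11 and 13 counts in all. It did not pass the low-count filter and was not tested, and at these counts a small or moderate difference was not detectable. Of the 8 members, 7 passed the filter.

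Sox9, a transcription factor of progenitors in many epithelia, had 6.46, 6.51, 8.43, 12.5 and 9.31 CPM in Musashi IP, against 4.70, 5.39, 1.82, 2.55 and 3.93 CPM in IgG. The groups did not overlap, but lysates 2 and 3 stood close together in both. Sox9 rose 2.36-fold (log2 1.24 ± 0.31, adjusted p = 0.0211, edgeR; log2 1.49 without lysate 2). Its ratio was log2 0.44 and 0.26 in lysates 2 and 3 and 2.08, 2.20 and 1.20 in lysates 5, 6 and 7. It missed the threshold without lysate 5 or 7 (adjusted p = 0.0813 and 0.0540; range 6.03e-05 to 0.0813).

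Sox2, the transcription factor that defines the pituitary stem cell pool, had 9.80, 12.3, 9.07, 9.11 and 10.3 CPM in Musashi IP, against 11.2, 6.33, 4.80, 5.22 and 8.00 CPM in IgG. Levels in Musashi IP were narrow (10.1 ± 1.31 CPM), and the overlap came from the IgG library of lysate 2. The fold change was 1.46 (log2 0.55 ± 0.19, 95% interval of the fold 1.08 to 1.98), higher in 4 of 5 lysates, and it did not pass (adjusted p = 0.0640, edgeR). It passed without lysate 2, the lysate of its lowest ratio (log2 0.79, adjusted p = 0.00951, edgeR), and with no low-count filter (0.0314). Over all alternatives adjusted p ran from 0.00951 to 0.217.

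The Sox2 gene lies within the span of the noncoding gene Sox2ot, on the same strand, with no shared exon in GENCODE M21. Sox2ot, looked up for this overlap, had 22.2 to 39.8 CPM in Musashi IP and 31.5 to 39.8 CPM in IgG, with a log2 fold change of -0.36 ± 0.11 (adjusted p = 0.0458, edgeR). That call was lost under 7 of 13 alternatives (adjusted p 0.0192 to 0.218).

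Aldh1a2 makes retinoic acid from retinaldehyde. It had 26.7, 38.4, 20.7, 25.2 and 39.6 CPM in Musashi IP, against 23.0, 27.8, 13.4, 12.4 and 22.8 CPM in IgG. The groups overlapped, yet Musashi IP was higher within each of the 5 lysates. Aldh1a2 rose 1.54-fold (log2 0.62 ± 0.13, adjusted p = 0.0121, edgeR; log2 0.77 without lysate 2). Its call was lost without the lysate block (adjusted p = 0.151) and without lysate 5 or 7 (0.0577 and 0.0630; range 0.00146 to 0.151).

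Nes and Vim encode filaments that are also made outside stem cells, in endothelial, mural and connective tissue cells. Nes had 94.6, 45.8, 62.9, 57.8 and 34.4 CPM in Musashi IP, against 97.0, 28.4, 47.3, 41.6 and 19.8 CPM in IgG. Its level varied more between lysates than between antibodies, with lysate 2 highest in both. Within lysates it was higher in 4 of 5, and it rose 1.37-fold (log2 0.46 ± 0.13, adjusted p = 0.0337, edgeR; log2 0.63 without lysate 2). The call was lost with library totals as scaling (adjusted p = 0.109), after length and GC offsets (log2 0.20, 0.263), without the block (0.596) and without lysate 3, 5 or 7 (0.134, 0.103 and 0.173; range 0.00494 to 0.596).

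Vim had 8.25, 12.3, 4.75, 8.13 and 7.67 CPM in Musashi IP, against 13.9, 9.84, 5.71, 4.87 and 12.1 CPM in IgG. It was higher in 2 lysates and lower in 3, and the groups overlapped. The log2 fold change of -0.14 ± 0.23 did not pass (adjusted p = 0.660, edgeR; 95% interval of the fold 0.634 to 1.30), and it was 0.07 without lysate 2.

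**Figure D2:**
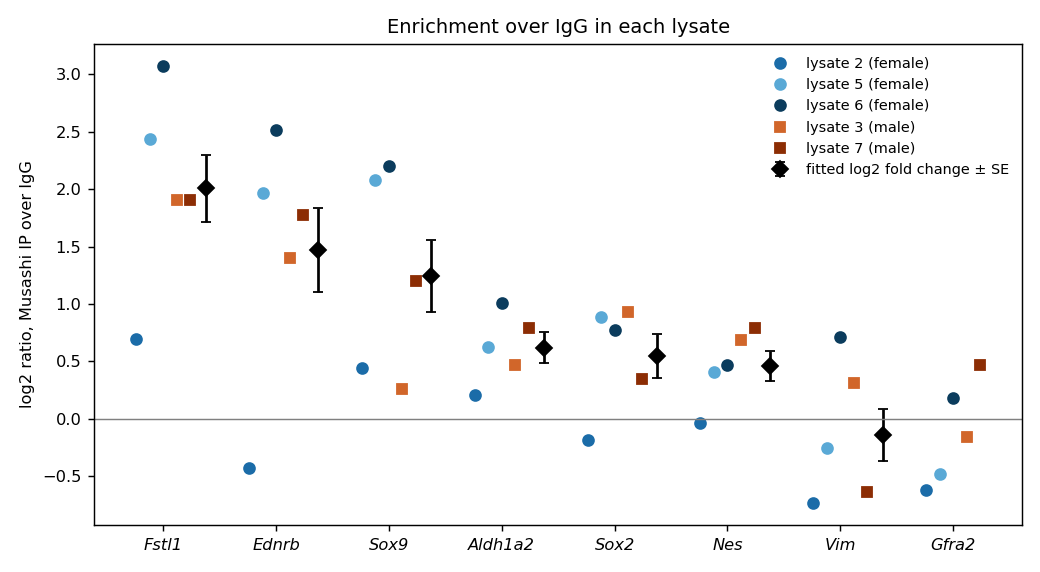
Log2 ratio of Musashi IP to IgG (vertical axis) in each lysate for the 8 mRNAs, with the fitted log2 fold change and its SE as a diamond for the 7 tested. Fstl1 lies above 0 in every lysate and reaches 3.07 in lysate 6, while Vim and Gfra2 scatter about 0.

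Together, 5 of the 7 tested members rose, 0 fell and 2 did not pass. Across all 20550 genes tested 18.5% rose and 8.40% fell (26.9% called in all), and among protein-coding genes of the same fit 25.7% rose and 4.01% fell. The median log2 fold change was 0.62 for the 7 members tested, 0.09 for protein-coding genes and -0.07 for all genes tested. With library totals the median of all genes was -0.24 and 4 members rose. Every Musashi IP library exceeded every IgG library for 2 of the 8 members, Fstl1 and Sox9, and for 9.70% of all genes tested. Ratios were above 0 in all 5 lysates for 3 members, and for 22.4% of all genes tested. Without lysate 2, 6 members rose, while calls over all genes also grew, to 28.3% (4651 of 20543 genes rose). Without lysate 5 or lysate 7 only Fstl1 rose, while the calls over all genes fell to 9.01% and 14.0%.

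The lysates differed in how far the members separated. The median log2 ratio of the 8 members was -0.11, 0.57, 0.76, 0.89 and 0.79 in lysates 2, 3, 5, 6 and 7. Over all genes tested the spread of log2 ratios was narrowest in lysates 3 and 2 (SD 0.480 and 0.511) and widest in lysate 6 (SD 1.03), and its median lay between -0.07 and 0.00 in each lysate.

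**Figure D3:**
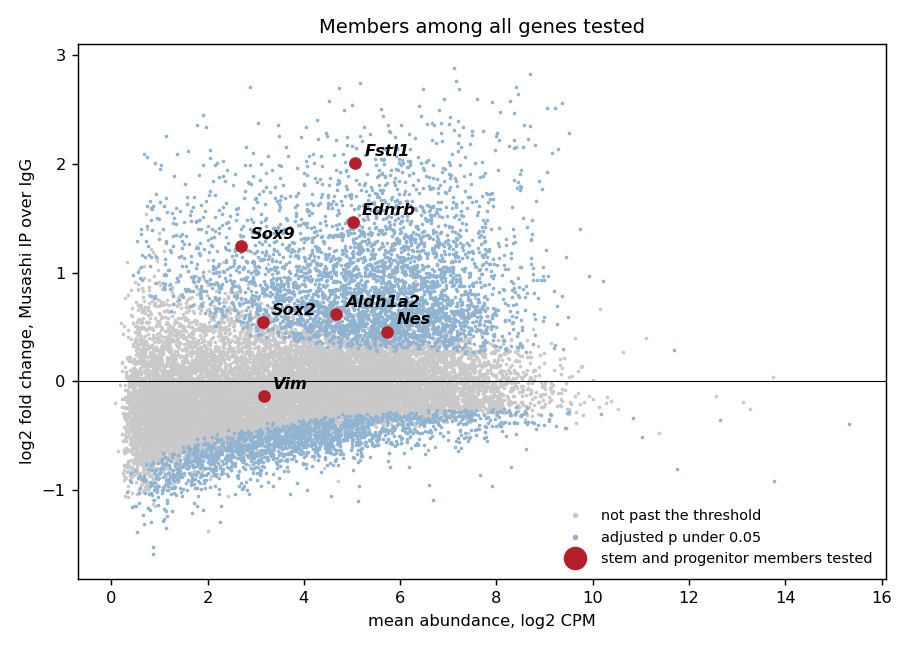
Log2 fold change of Musashi IP over IgG against mean abundance (log2 CPM) for the 20550 genes tested; blue points passed an adjusted p of 0.05 and red points are the 7 members tested. Fstl1, Ednrb and Sox9 lie in the upper part of the cloud, and Vim lies among genes that did not pass.

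Per kilobase of exon, levels in Musashi IP were highest for Aldh1a2 (13.3 ± 3.71 CPM per kb), Ednrb (10.9 ± 4.05), Fstl1 (10.8 ± 3.89) and Nes (9.21 ± 3.54). The ranges of these 4 over the libraries overlapped, and differences between genes were not tested. Sox2 (4.91 ± 0.636), Sox9 (2.09 ± 0.604) and Vim (1.73 ± 0.565) were lower, and Gfra2 was at 0.0662 ± 0.0288. In IgG the order on the same scale was Aldh1a2 (8.78 ± 2.96), Nes (7.30 ± 4.68), Ednrb (4.01 ± 1.85), Sox2 (3.45 ± 1.26), Fstl1 (2.66 ± 0.932), Vim (1.95 ± 0.825), Sox9 (0.889 ± 0.358) and Gfra2 (0.0883 ± 0.0693). The order depends on the length used: with the longest transcript as the length, Fstl1 was at 14.0 in Musashi IP, above Aldh1a2 (13.3) and Ednrb (11.3), and at 3.45 in IgG, level with Sox2. Vim was then at 2.81 in Musashi IP and 3.17 in IgG.

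Females and males were compared within each kind of library, and the antibody effect was compared between them. The libraries are bulk RNA, so fewer cells of a type and less RNA per cell cannot be told apart. Nes was higher in females in IgG, at 97.0, 47.3 and 41.6 CPM in females and 28.4 and 19.8 CPM in males, with no overlap (2.56-fold, log2 1.36 ± 0.34, adjusted p = 0.0461, edgeR). In all, 4.50% of 20987 genes tested were called in that comparison (2.66% higher and 1.84% lower in females), and Nes was 1 of the 7 members tested to be so. In Musashi IP Nes was at 94.6, 62.9 and 57.8 CPM in females and 45.8 and 34.4 CPM in males, again with no overlap, but did not pass (log2 0.83 ± 0.30, adjusted p = 0.200, edgeR). There 2.84% of 21238 genes were called (1.90% higher and 0.946% lower in females), and 0 members. How many of all genes showed no overlap between the sexes was not counted, so the lack of overlap is a description only. The summed mural and fibroblast markers had the same order. In IgG the sums were 1348, 612 and 681.5 CPM in females and 305 and 431 CPM in males. In Musashi IP they were 897, 565 and 727 CPM against 435 and 380 CPM. Col1a2 made up much of each sum (on average 473 CPM in IgG and 406 CPM in Musashi IP), so the sum says little about the other markers. The part of these markers in the Nes difference was not tested. The Nes call in IgG held without lysate 2 (log2 0.89, adjusted p = 0.0147) but not without lysate 3 or 7 (0.229 and 0.426), with limma-voom (0.0773) or with a filter at 2 CPM (0.0507). Its range over all alternatives was 1.01e-07 to 0.426.

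Aldh1a2 had the opposite order. It was at 26.7, 20.7 and 25.2 CPM in females and 38.4 and 39.6 CPM in males in Musashi IP (log2 -0.70 ± 0.23, adjusted p = 0.150, edgeR), and at 23.0, 13.4 and 12.4 CPM in females and 27.8 and 22.8 CPM in males in IgG (-0.64 ± 0.28, adjusted p = 0.276). The groups did not overlap in Musashi IP and met in IgG through lysate 2. The share of all genes without overlap between the sexes was not counted. Neither difference passed. Without lysate 2, Aldh1a2 and Vim passed as lower in females in IgG (log2 -0.97 and -1.05, adjusted p = 0.0128 and 0.0313, edgeR), which rests on 2 lysates of each sex. Over all alternatives adjusted p ran from 0.0128 to 0.630 for Aldh1a2 and from 0.0313 to 0.919 for Vim.

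**Figure D4:**
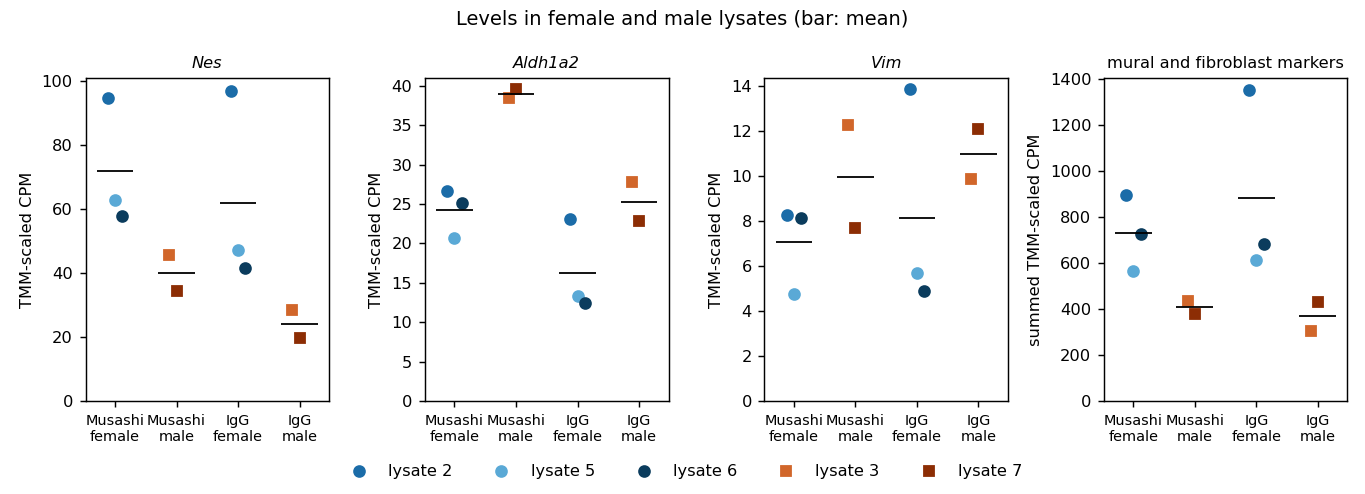
TMM-scaled CPM of Nes, Aldh1a2 and Vim, and the summed CPM of mural and fibroblast markers, in female (circles) and male (squares) lysates, with Musashi IP libraries left of IgG libraries and group means as bars. Nes and the marker sum are higher in all 3 female lysates than in both male lysates in each kind of library. The 3 female values of Aldh1a2 in Musashi IP, at most 26.7 CPM, lie below both male ones. How many of all genes separate the sexes in this way was not counted, and Col1a2 makes up much of the marker sum.

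The antibody effect itself was not shown to differ between females and males for any member. The mean log2 ratio over IgG was 2.07 in female and 1.90 in male lysates for Fstl1, 1.35 and 1.59 for Ednrb, 1.58 and 0.73 for Sox9, 0.61 and 0.63 for Aldh1a2, and 0.28 and 0.74 for Nes. The largest fitted difference, that of Sox9, was 0.84 ± 0.61 with a 95% interval of -0.58 to 2.26 (adjusted p = 1, edgeR interaction). Of all genes, 0 passed in this comparison (0% of 20550), against 187 at an unadjusted p under 0.05. DESeq2 and limma-voom also called 0. The 95% interval of the difference was -1.27 to 1.59 for Fstl1, -2.03 to 1.56 for Ednrb and -1.03 to 0.11 for Nes. These differences moved without lysate 2, to 1.51 ± 0.46 for Sox9, 0.90 ± 0.29 for Fstl1 and 0.67 ± 0.29 for Ednrb, against -0.23 ± 0.78 for Ednrb with all lysates. None of them passed there either (adjusted p = 0.263, 0.268 and 0.406, edgeR; up to 1 over all alternatives).

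The genes around the members were described from lists drawn up by function. A count given without a named alternative is to be read against the 25.7% of protein-coding genes that rose and the 4.01% that fell. Counts under an alternative are to be read against all genes of that fit. There 1676 of 20669 genes rose without lysate 5, 2288 of 20548 without lysate 7 and 4651 of 20543 without lysate 2. Of 20550 genes, 3153 rose with library totals, 3520 with DESeq2, 3315 with length and GC offsets and 2407 without the block. Of 28 other genes linked to pituitary stem and progenitor cells 25 were tested, and 6 rose and 0 fell, a share near that of all protein-coding genes. They were led by the epithelial adhesion gene Cdh1 (log2 1.48 ± 0.24, adjusted p = 0.00493, edgeR), at 13.0 ± 3.58 CPM in Musashi IP and 4.57 ± 1.19 CPM in IgG. Next came the homeobox gene Six6 (1.24 ± 0.25), the Hippo effector Yap1 (0.88 ± 0.15) and the glutamate transporter Slc1a3 (0.63 ± 0.17). Classical markers such as S100b (0.02 ± 0.20), Krt8 (0.24 ± 0.13), Krt18 (-0.12 ± 0.12), Cyp2f2 (-0.08 ± 0.12) and Hes1 (-0.50 ± 0.26) did not pass. Without lysate 7 the count of higher genes was 3. Leaving out lysate 3, 5 or 7 put Slc1a3 past the threshold no longer (adjusted p = 0.0690, 0.0976 and 0.0874, edgeR; range over all alternatives 0.00230 to 0.0976).

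In the Hippo pathway, which restrains proliferation through Yap1, 9 of 18 genes rose and 1 fell. The scaffold gene Amotl1 (1.49 ± 0.21) was at 222 ± 90.0 CPM in Musashi IP and 75.9 ± 15.2 CPM in IgG. It was followed by the target gene Ccn1 (0.92 ± 0.23), Yap1 and the kinase gene Stk4 (0.82 ± 0.15). Another target gene of the list, Ccn2, stood at -0.69 ± 0.35 and did not pass. The kinase gene Stk3 fell by 0.36 ± 0.10 on the log2 scale. Without lysate 5 or 7 the higher genes numbered 3 and 4 and neither Stk3 (adjusted p = 0.0857 and 0.0510, edgeR) nor Ccn1 (0.0722 and 0.0616) passed. Stk3 was called in 9 of 14 alternatives (lowest adjusted p 0.00803) and Ccn1 in 11 (0.00133 to 0.345).

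The endothelin system had 3 higher and 0 lower of 5 tested genes, Ednrb among them. Ece1, which encodes the protease that activates endothelins, was at 730.2 ± 271 CPM in Musashi IP and 156 ± 31.2 CPM in IgG (log2 2.17 ± 0.24, adjusted p = 0.00336, edgeR). The ligand gene Edn3 was at 6.75 ± 2.98 CPM in Musashi IP and 2.89 ± 1.65 CPM in IgG (log2 1.24 ± 0.33, adjusted p = 0.0272, edgeR). It did not pass with lysate 5 or 7 left out (0.0881 and 0.0730) or with no block (0.0520; range 0.000191 to 0.0881). The other receptor gene, Ednra, stood at 0.76 ± 0.34 and did not pass. Without lysate 5 or 7 the higher genes of this list numbered 1.

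Of 14 tested genes of retinoic acid synthesis, transport and response 4 rose and 0 fell, again near the 25.7% of protein-coding genes that rose. They were Aldh1a2 and the receptor genes Rxra (1.33 ± 0.18), Rarg (0.45 ± 0.14) and Rara (0.35 ± 0.11). With library totals, with DESeq2 or with length and GC offsets 2 rose, 1 rose without lysate 5 or 7 or without the block, and 7 rose without lysate 2. Rarg missed the threshold in 8 and Rara in 11 of 14 alternatives (adjusted p up to 0.190 and 0.423, edgeR). Aldh1a1, the other abundant retinaldehyde dehydrogenase of the list, stood at 0.37 ± 0.36.

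Of 5 tested GDNF family genes 3 rose and 0 fell. Gfra1, the relative of Gfra2 that binds GDNF, was at 9.03 ± 4.23 CPM in Musashi IP and 3.53 ± 1.49 CPM in IgG (log2 1.33 ± 0.24, adjusted p = 0.00615, edgeR), the adhesion molecule Ncam1 stood at 1.15 ± 0.17, and the signalling receptor Ret at 0.54 ± 0.17. Ret was not called in 12 of 14 alternatives (adjusted p 0.0186 to 0.215, edgeR).

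Of 13 tested intermediate filament genes 5 rose and 0 fell. The neuronal filament genes Ina (log2 2.13 ± 0.30) and Nefl (2.13 ± 0.28) rose by more than Nes, with Synm (0.70 ± 0.19), whose protein pairs with vimentin and desmin, between them. Krt8, Krt18 and Vim did not pass. Of 11 follistatin and SPARC family genes 6 rose and 0 fell, with Spock2 (2.16 ± 0.22), Fstl1, Spock1 (1.69 ± 0.19) and Fstl3 (1.62 ± 0.22) at the top, while Sparc (-0.18 ± 0.36) and Sparcl1 (-0.02 ± 0.20) did not pass. With library totals 3 filament genes rose, with length and GC offsets or without lysate 5 or 7 2 did, and Synm missed the threshold in 4 of 14 alternatives (adjusted p up to 0.0771, edgeR).

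Other cells of the gland gave few calls. Among markers of endothelium (9 tested) and of mural cells and fibroblasts (10 tested) 0 rose and 0 fell (median log2 -0.45 and -0.26). Of 5 tested markers of posterior lobe glia 0 passed the threshold. Of 9 tested immune markers 2 fell, Ptprc (-0.66 ± 0.16) and Csf1r (-0.47 ± 0.12). Those 2 calls were lost without lysate 5 (adjusted p = 0.0653 and 0.104, edgeR) and without the block (0.127 and 0.257), and that of Csf1r also without lysate 7 (0.0862). Without lysate 2, 3 mural or fibroblast markers rose, in a fit where 4651 of 20543 genes rose. Without lysate 3, 4 of them fell, in a fit where 2101 of 20714 genes fell. The endothelial values include the IgG library of lysate 2, whose marker sum was 412 CPM. Plvap was higher in Musashi IP in 4 of 5 lysates, Pecam1, Cdh5 and Esam in 3, Kdr in 2, and Flt1, Tek, Tie1 and Emcn in 1. Of 6 hormone mRNAs 1 rose, the gonadotropin subunit Fshb (log2 2.28 ± 0.37; not called without the block).

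**Figure D5:**
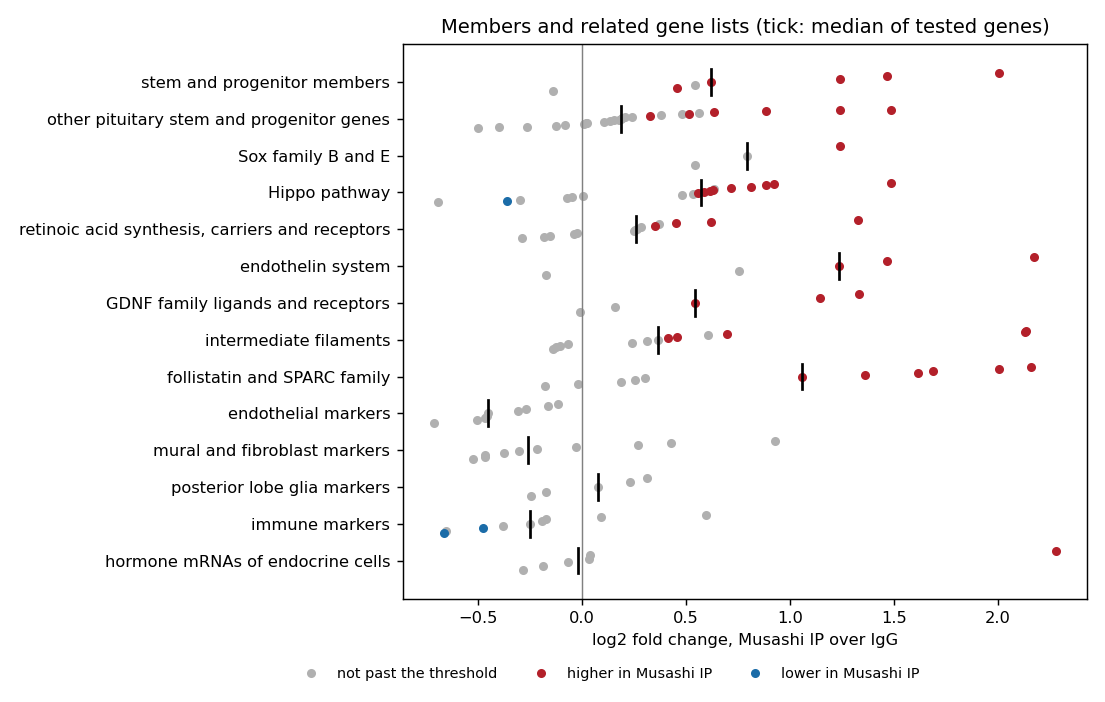
Log2 fold change of Musashi IP over IgG (horizontal axis) for every tested gene of the members and 13 related lists; red genes passed as higher, blue as lower, grey did not pass, and a tick marks the median. The members' median is 0.62, and the endothelin list reaches 2.17 with Ece1. No endothelial marker lies above 0, but none passed, and their sum was far higher in the IgG library of lysate 2 (412 CPM) than in the other IgG libraries.

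Likeness was measured as Pearson's r of log2 CPM over the 10 libraries, which share the split by antibody and the scaling, and is given as a description. Among the members, Fstl1 followed Ednrb (r = 0.944) and Sox9 (0.937), and Sox2 followed Aldh1a2 (0.797) and Ednrb (0.790). Nes (at most 0.364, leaving out Gfra2 with its few counts) and Vim (at most 0.589) kept patterns of their own. Over 12693 genes of at least 8 CPM on average, the most similar to Fstl1 were Cx3cl1 (0.994), Cdc42ep4 (0.993) and Fzd1 (0.993), and to Ednrb Igf1 (0.974), Serpinb9 (0.969) and Supt16 (0.968). Those most similar to Sox2 were Axl (0.928), Tgm2 (0.927) and Inhbb (0.917), and to Aldh1a2 Glul (0.980), Mmp14 (0.970) and Slc7a2 (0.950). For Sox9 they were Nubp2 (0.981), Iffo2 (0.970) and Elac1 (0.959), and for Nes Mtss1l (0.967), Plekhj1 (0.963) and Abhd11 (0.961). For Gfra2, whose values rest on at most 6 counts, they were Capzb (0.950), Cdk10 (0.931) and Cryba2 (0.921). For Vim they were Card6 (0.931) and the extracellular matrix genes Dcn (0.917) and Sparcl1 (0.893).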

How the data were processed

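The authors deposited raw read counts per Ensembl gene as whole numbers, without normalization. Per the submitters' processing notes, the tools were FastQC 0.11.8, Trimmomatic 0.39 and STAR 2.7.1a, on GRCm39. Which program counted reads, on which annotation and strand, and what became of multi-mapped reads is not given in the sources used here, so overlapping genes are uncertain. Symbols, lengths and 3' untranslated regions came from GENCODE M21 on GRCm38, an older build, so no coordinates are given; 52135 of 55416 IDs (94.1%) matched.

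Counts were tested in R 4.3.3 with edgeR 4.0.16: filterByExpr, TMM factors, the quasi-likelihood test and Benjamini-Hochberg adjustment at 0.05 over all genes tested. Musashi IP was compared with IgG in a model blocked on lysate, which left 4 residual degrees of freedom per gene. Between sexes the comparison was unpaired, or an interaction with the block. SE is the log2 fold change divided by the square root of F; single-lysate ratios used a prior count of 2. limma 3.58.1 and DESeq2 1.42.0 served as alternatives, and the edgeR tests were checked on simulated data.

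The lysate pairs the libraries because the protocol in the labels says that each was divided between the antibodies. Same-lysate deviations from the group means correlated at 0.523, 0.679, 0.602, 0.186 and 0.778 (lysates 2, 3, 5, 6 and 7). Each exceeded the highest correlation with another lysate except in lysate 6, where that was 0.415. The immunoprecipitations were done on separate occasions per the labels; no batch beyond the lysate is named. Counts are not independent molecules, so depth covers counting error only. No 2 libraries held identical values.

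The members and lists were chosen with earlier results of these data known. Named genes are all members and, from each list, up to 4 genes per direction past the threshold by size of change; the list genes named as not passing, and Sox2ot, were chosen after their values were seen.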

Additional observations from a re-analysis of the deposited data

Results flagged for a closer look

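Across 32 sets of 5 values (CPM of each member per antibody, its log2 ratio per lysate and the summed markers of 4 cell types per antibody), 1 held a sample far from the others by Dixon's criterion, where chance gives about 1 in 20. The summed endothelial markers in IgG reached 412 CPM in lysate 2, and the nearest of the other IgG libraries was at 170 CPM, a gap of 0.756 of the whole range. In Musashi IP of the same lysate the sum was 80.8 CPM. No set of a member's own values met the criterion. The summed hormone mRNAs, highest in lysate 2, were not among the sets examined.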

How the results depend on the processing

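The number of members past the threshold, 5 for Musashi IP against IgG, lay between 4 and 6 under other scalings, filters and tests, and after length and GC offsets. Without the lysate block, which drops the pairing of the libraries, 3 members passed, and it ran from 1 to 6 when a lysate was left out. Over all genes 5531 were called, against 1863 without lysate 5, 2885 without lysate 7 and 2583 without the block. Of these 5531, 3804 were higher and 1727 lower; with library totals 3153 were higher and 4068 lower, and with length and GC offsets 3315 and 2420. Between sexes in IgG, 1 member passed, 0 with a filter at 2 CPM, 0 with limma-voom, and 0 to 3 with a lysate left out; over all genes 945 were called, 1947 with no low-count filter, and between 172 and 1354 with a lysate left out. In Musashi IP 0 members passed under any alternative; 604 genes were called, 1059 with DESeq2, 1679 with no low-count filter and between 219 and 999 with a lysate left out, and library totals gave 376 higher and 385 lower in place of 403 and 201. The interaction gave 0 members and 0 genes throughout, also without the block. Fstl1 was called under every alternative run; the causes of the lost calls were not tested. Leaving out a male lysate leaves 1 male library per antibody, assumed to vary like the rest. Depth limits Gfra2, whose log2 value of -0.31 with no low-count filter (adjusted p = 0.872, edgeR) rests on at most 6 counts a library.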

Other observations

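Several relatives of the members were too low to test. Of the 8 genes of Sox families B and E only 3 were tested: Sox2, Sox9 and Sox8. Sox8 stood at log2 0.80 ± 0.27 and did not pass (adjusted p = 0.0545, edgeR). Among those not tested, Sox14 had 0 counts in all 10 libraries, Sox21 at most 1, Sox3 at most 3 and Sox10 2 to 20. Among GDNF family genes Gfra3 had 0 to 19 counts, Gfra4 2 to 27 and the ligand Nrtn 2 to 9. The endothelin ligand genes Edn1 and Edn2 had at most 2 and 9 counts, and Edn3 was the 1 ligand gene of that list that was tested.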
